A study of Schizosaccharomyces pombe with 16 samples.

Results

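The expression table of the fission yeast Schizosaccharomyces pombe holds 53 rows for small nucleolar RNAs (snoRNAs) among 7022 features, and these 53 rows, chosen by their identifier alone, are described here in polyadenylated RNA of 8 strains. The strains carry either a wild-type carboxy-terminal domain (CTD) of Rpb1, the largest subunit of RNA polymerase II (WT, strain rpb1CTD-WT 1-18), or a mutant one. There are 4 single mutants, named Y1F, S2A, T4A and S7A, and 3 double mutants that combine S7A with each of the others, named Y1F-S7A, S2A-S7A and T4A-S7A. Each name gives the residue of the CTD repeat that was replaced and the residue put in its place, so Y1F exchanges tyrosine for phenylalanine and the other changes put in alanine. All strains carry the markers ade6, ura4-D18 and leu1–32. All are of mating type h- except S2A, which is h+, so that in S2A the mating type and the CTD change cannot be told apart. Each strain gave 2 biological replicates, cultured in YES, a rich medium, at 30 °C until the OD600 was 0.4–0.7, which makes 16 libraries of 18677921 to 31254978 counted reads. Replicate numbers pair the libraries, as described in the processing section, and every comparison with WT shares the same 2 WT libraries.

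snoRNAs are short nuclear RNAs that guide chemical modification of ribosomal RNA. Box C/D snoRNAs carry a C box near the 5′ end and a D box near the 3′ end and direct 2′-O-methylation through the methyltransferase fibrillarin, whereas box H/ACA snoRNAs end in an ACA triplet and direct pseudouridylation through the Cbf5 enzyme. RNA polymerase II transcribes most of them, the transcript is released without a stable poly(A) tail, and the nuclear exosome trims the end or, with the help of poly(A) polymerases and poly(A)-binding proteins, degrades extended forms. The libraries were made from polyA+ RNA, so their values are levels of snoRNA sequence recovered in that selection and not the amount of mature snoRNA in the cell. In bulk samples, fewer cells holding an RNA and less of it per cell cannot be told apart.

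Of the 53 snoRNA features, 31 lay on chromosome I, 18 on chromosome II and 4 on chromosome III. All 53 identifiers matched a locus tag in RefSeq ASM294v3, and 51 had the same start and end there. The exceptions were snR90 and snoZ30. One feature, snR46, was deposited on the opposite strand to its RefSeq entry, and it held 8 reads over all libraries. The features were 47 to 326 bases wide, with a median of 96. RefSeq names 19 of them as box H/ACA RNAs, with a median width of 168 bases. The other 34 had a median of 84 bases. They include most of the box C/D RNAs and also snR30, named U17 by RefSeq, which is a box H/ACA RNA in budding yeast.

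Of the features on which the comparisons below turn, some that show the class letters are printed here. In the box H/ACA RNAs sno12 at chrIII:583416-583605 (plus strand), snR3 at chrII:884166-884332 (minus strand), snR95 at chrII:1468185-1468406 (minus strand) and snR92 at chrII:2121215-2121358 (plus strand), capitals mark the ACA triplet within the last 9 bases.
sno12: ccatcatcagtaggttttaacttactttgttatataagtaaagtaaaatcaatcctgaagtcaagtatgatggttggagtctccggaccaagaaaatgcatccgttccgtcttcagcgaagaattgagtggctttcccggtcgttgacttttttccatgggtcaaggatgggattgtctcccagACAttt
snR3: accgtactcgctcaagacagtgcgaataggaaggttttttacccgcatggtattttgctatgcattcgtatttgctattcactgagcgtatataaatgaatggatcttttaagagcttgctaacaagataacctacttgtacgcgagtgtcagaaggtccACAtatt
snR95: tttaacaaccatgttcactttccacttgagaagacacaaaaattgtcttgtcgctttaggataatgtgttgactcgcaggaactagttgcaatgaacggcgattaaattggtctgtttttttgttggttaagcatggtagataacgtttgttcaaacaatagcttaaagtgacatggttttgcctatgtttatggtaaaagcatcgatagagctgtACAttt
snR92: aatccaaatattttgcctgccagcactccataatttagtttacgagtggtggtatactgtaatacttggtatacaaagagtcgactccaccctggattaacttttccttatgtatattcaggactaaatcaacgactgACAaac
In snoZ16 at chrI:1234963-1235045 (plus strand), snoZ15 at chrII:1756122-1756222 (minus strand) and snoR38 at chrI:5144133-5144206 (plus strand), capitals mark TGATG, searched in the first 20 bases, and CTGA, searched in the last 15 bases, which are the core letters of the C and D boxes.
snoZ16: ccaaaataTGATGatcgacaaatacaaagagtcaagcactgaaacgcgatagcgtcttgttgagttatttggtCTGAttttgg
snoZ15: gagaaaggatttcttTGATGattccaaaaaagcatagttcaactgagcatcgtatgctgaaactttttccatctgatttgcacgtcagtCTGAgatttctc
snoR38: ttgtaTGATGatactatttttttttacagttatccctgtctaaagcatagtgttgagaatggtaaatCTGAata
Sequences are given 5′ to 3′ on the strand of the feature, read from RefSeq ASM294v3. TGATG and CTGA stood at those places in 22 of the 34 features not named as box H/ACA and in 0 of the 19 box H/ACA features, against 0.0892% of genome windows of 84 bases read on both strands. ACA stood in the last 9 bases of 13 of the 19 box H/ACA features and of 4 of the other 34, against 11.2% of windows. Among those 4 were snR30 and snoZ4, on which comparisons below also turn. Both lacked TGATG and CTGA at the places searched, and they are not printed. A match is a match of letters only, and its absence says nothing of the class.

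Members lay in very different places. Of the 53, 27 lay wholly inside another feature of the same strand: 16 in 10 non-coding features, 10 in introns of 10 protein-coding genes, and snr62 in SPAC4H3.12c, which the reference does not list. Counting features that lie mostly (by over 50% of their length) inside another raised this to 30 by adding snR30 in SPNCRNA.906, snR91 in SPNCRNA.901 and snR95 in SPNCRNA.1436. Only 4 of the 19 box H/ACA features were wholly inside another, against 23 of the other 34. The non-coding host SPNCRNA.659, named snoZ, holds 5 snoRNAs in a row, snoZ8, snoZ7, snoZ5, snoZ4 and snoZ3, and SPNCRNA.723 holds snR41, snR70 and snR51b. Intron hosts include cpc2, the fission yeast RACK1 ribosomal protein (snoU24b), rpl701, a protein of the large ribosomal subunit (snoR39b), gua1, IMP dehydrogenase (snoR54), and pfd1, a prefoldin subunit (snoZ15). In all, 8 members were overlapped by a feature on the opposite strand, and no source used here says whether the authors' counting used the strand.

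The snoRNA rows took a small part of each library, 0.0104% to 0.0574% of its reads and 110300 reads in all. Reads were very unevenly spread over the members: snR30 with 23178 reads and sno12 with 16306 made up 35.8% of them, and the 10 features with the most reads made up 73.7%. Features with fewer than 100 reads over the 16 libraries numbered 17. Both snR41 and snR5 had 0 reads in every library, and 32 features had reads in every library. Of the box H/ACA features, snR5, snR10 with 1 read, snR46 and snR96 with 43 reads lacked ACA in the last 9 bases of the annotated strand and held it at that place on the other strand. Their low values are values of the annotated strand, if the counting used the strand, and whether that strand is the right one was not tested. After the filter on low counts 38 of the 53 were tested and 15 were not. Of the 38, only 27 reached the filter's level in both WT libraries, so the rest passed through libraries of other strains, and counts over the 38 are no count over all members.

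Per kilobase of width, averaged over the 16 libraries, the highest levels were those of snoZ16 at 245.3 RPKM (CPM per kilobase, where CPM is the count per 1e6 reads scaled by TMM factors), sno12 at 226 and snR30 at 182.8 RPKM. The order of the first 2 turned with the libraries: sno12 came first without S2A-S7A replicate 2 (216.5 against 200.6 RPKM) or without Y1F-S7A replicate 1 (220.3 against 212). sno12 was also above snoZ16 in WT, at 139.4 against 126.6 RPKM, and in Y1F, T4A, S7A and T4A-S7A. Next came sno52 at 110, snR92 at 95.41, sno20 at 93.53 and sno16 at 79.92 RPKM. The list of 10 closed with snoZ4 at 59.64, snR3 at 59.6 and snoR02 at 51.98 RPKM, and snR94 followed at 51.95. The neighbours snoZ4 and snR3, and snoR02 and snR94, differed by far less than their spread over libraries. The spread was wide throughout: snoZ16 ran from 0.686 to 75.97 CPM and sno12 from 17.54 to 70.51 CPM. Ranked by CPM in place of RPKM, 8 of these 10 features stayed among the 10 highest.

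Summed over all 53 features, snoRNA sequence was more abundant in polyA+ RNA of Y1F, S2A and both double mutants made from them. The sum was 237.5 and 137.1 CPM in the 2 WT libraries, with replicate 1 given first here and below. It was 431.1 and 370.7 CPM in Y1F, 376.8 and 260.4 in S2A, 529.0 and 323.9 in Y1F-S7A, and 339.8 and 529.9 in S2A-S7A. None of these 8 libraries fell as low as the higher WT library. By contrast, T4A with 190.0 and 123.2 CPM, S7A with 262.3 and 167.9, and T4A-S7A with 155.1 and 112.8 overlapped WT. Within each replicate number the same order held: against the WT library of the same number the ratios were 1.82 and 2.7 for Y1F, 1.59 and 1.9 for S2A, 2.23 and 2.36 for Y1F-S7A, and 1.43 and 3.87 for S2A-S7A. S7A, at 1.1 and 1.22, was above WT in both numbers, and T4A, at 0.8 and 0.899, and T4A-S7A, at 0.653 and 0.823, were below it in both.

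The mean sum was 187.3 ± 71.0 CPM (SD, n = 2) in WT and 400.9 ± 42.7 CPM (SD, n = 2) in Y1F, a ratio of 2.14, and the ratios were 1.7 in S2A, 2.28 in Y1F-S7A and 2.32 in S2A-S7A. In S7A the ratio was 1.15, in T4A 0.836 and in T4A-S7A 0.715. The members were chosen with results of these data known, so no p is given for their sum, and an exact two-sided permutation test of 2 libraries against 2 could not go below 0.333. Leaving out snR30 and sno12, the sum of the remaining 51 features gave ratios of 1.8 in Y1F, 1.55 in S2A, 2.07 in Y1F-S7A and 2.11 in S2A-S7A. Features inside a host and features not inside one gave like ratios, 2.02 and 2.19 in Y1F and 2.23 and 2.36 in S2A-S7A. Box H/ACA features gave 1.92 in Y1F and 1.47 in S2A, and the other features gave 2.43 and 2.01. The other features include snR30, a box H/ACA RNA in budding yeast. In WT snR30 held 45.2 and 16.1 of their 102.5 and 58.8 CPM. In Y1F it held 130.1 and 66.1 of 218.2 and 173.4 CPM, so these ratios do not set the classes apart. The box H/ACA sum of S2A overlapped WT across numbers but was above WT within each, at 182.5 against 135.0 CPM and 131.2 against 78.31 CPM.

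Rows named as other short RNAs, without stable poly(A) tails, moved in part with the snoRNA rows. The 7 snRNA rows were taken by identifier alone, and need not all be spliceosomal RNAs or distinct in kind from snoRNAs. They summed to a mean of 2.084 CPM in WT. Y1F had 3.18, S2A 4.257, Y1F-S7A 5.287 and S2A-S7A 4.956, above both WT libraries in all 4 mutants. The 171 nuclear tRNA rows summed to 1.759 CPM in WT and 1.977 in Y1F, whose libraries overlapped, to 2.789 in Y1F-S7A, and to 7.106 in S2A and 6.538 in S2A-S7A, and these 3 strains lay above both WT libraries. Nuclear rRNA rows, at 3.532 to 6.312 CPM, overlapped WT in all 7 mutants. All 49 rRNA rows together were below both WT libraries in Y1F, T4A and S7A, at ratios of 0.651, 0.575 and 0.606. Mitochondrial rows were below in the same strains, at 0.588, 0.511 and 0.577. These sums share reads, since the rRNA rows that are not nuclear are also mitochondrial rows. In WT replicate 1 nuclear rows held only 86 of the 561 rRNA reads. The part of poly(A) selection in the snoRNA values was not tested.

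**Figure D1:**
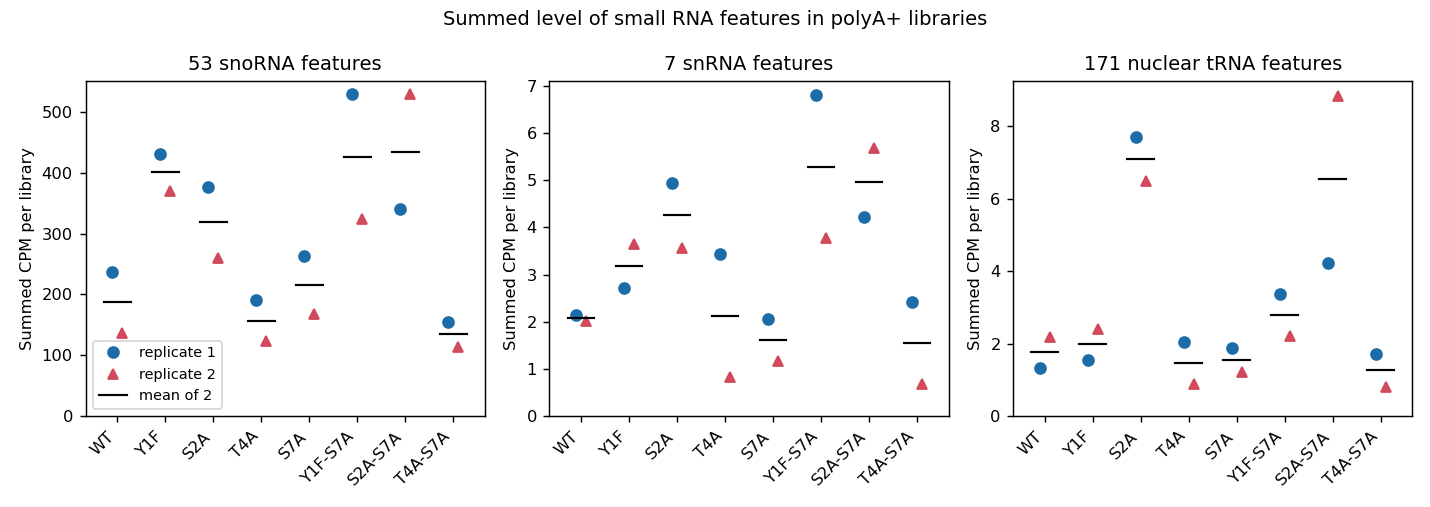
Summed CPM of the 53 snoRNA, 7 snRNA and 171 nuclear tRNA features in each of the 16 libraries. Circles are replicate 1, triangles replicate 2 and bars the mean of 2. All libraries of Y1F, S2A, Y1F-S7A and S2A-S7A lie above both WT libraries for snoRNAs, and tRNA rows lie above both WT libraries in S2A, S2A-S7A and, by less, Y1F-S7A.

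Feature by feature, the libraries of a mutant were set against those of WT for all 53 members, beside all 6792 features with reads. In Y1F, both libraries lay above both WT libraries for 27 members, or 50.9%, against 19.3% of all features, and below for 1, or 1.89%, against 20.7%. In Y1F-S7A 26 lay above, or 49.1%, against 22.3%, and 2 below, or 3.77%, against 24%. For S2A 20 lay above, or 37.7%, against 25.4%, and 4 below, or 7.55%, against 24.6%. In S2A-S7A 22 lay above, or 41.5%, against 26.2%, and 2 below, or 3.77%, against 25.8%.

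In T4A 1 member lay above WT, or 1.89%, against 14.4% of all features, and 10 below, or 18.9%, against 17.5%. T4A-S7A had 5 above, or 9.43%, against 18.6%, and 9 below, or 17%, against 19.6%. The counts below WT in these strains were near the background, and those above WT were under it. S7A had 11 above, or 20.8%, against 18.5%, and 2 below, or 3.77%, against 20.2%.

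Few single features passed the test when the replicate number was left out of the fit. Features were called where edgeR's quasi-likelihood test, fitted on all 16 libraries, gave a Benjamini-Hochberg adjusted p under 0.05 over all 6420 tested features. In Y1F 1 snoRNA feature rose, sno12, which is 2.63% of the 38 tested, against 2.96% of all features called and 1.29% called higher. In Y1F-S7A 3 rose, sno12, snR3 and snR95, or 7.89%, against 7.21% called and 3.74% called higher. S2A-S7A had 2 that rose, sno12 and snR95, or 5.26%, against 16.5% called and 8.49% called higher. No member was called lower in these 3 comparisons. Counts of 1 to 3 features are too few to set apart from these background shares.

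With the replicate number as a block, more members passed. The count was 8 in Y1F, all higher, against 12.6% of all features, 11 in Y1F-S7A, all higher, against 24.9%, and 16 in S2A-S7A, 14 higher and 2 lower, against 37.9%. As shares of the 38 tested they are 21.1%, 28.9% and 42.1%. DESeq2 called 5 in Y1F, against 6.27% of all features it tested, 5 in Y1F-S7A, against 12%, and 9 in S2A-S7A, against 21.7%.

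For S2A against WT the edgeR fit called 0 members, against 11.9% of all features, with 10 at an unadjusted p under 0.05, of which 8 were higher. The block raised this to 9, all higher and 23.7% of those tested, against 29.4%, and DESeq2 called 3, against 16%, 2 of them higher. In T4A 0 were called by edgeR, against 0.0935% of all features, with 3 at an unadjusted p under 0.05, all lower. The block also gave 0, against 1.64%, as did DESeq2, against 0.972%. S7A had 0 by edgeR, against 1.71%, 1 at an unadjusted p under 0.05, 0 with the block, against 8.1%, and 0 by DESeq2, against 4.55%. T4A-S7A had 0 by edgeR, against 2.79%, 3 at an unadjusted p under 0.05, all lower, 0 with the block, against 10.9%, and 0 by DESeq2, against 5.68%.

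**Figure D2:**
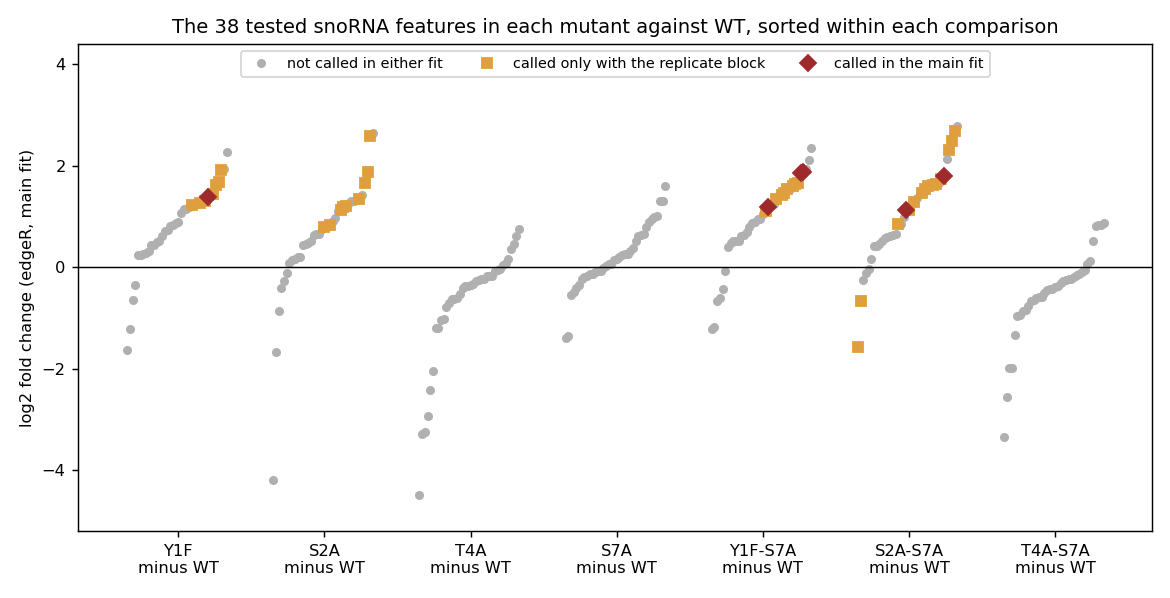
log2 fold change from WT of the 38 tested snoRNA features in each mutant, sorted within each comparison. Diamonds were called by edgeR in the fit without a block, squares only with the replicate block, and grey points in neither. All called points lie above 0 except snR101 and snoR47 in S2A-S7A. Features that passed the filter only through mutant libraries had to lie high, so the spread of the grey points is no count over all members.

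The joint edgeR test of any difference among the 8 strains called 8 of the 38, or 21.1%, against 22.3% of all tested features, a share near the background. With the replicate block it called 20, or 52.6%, against 57.9%, and DESeq2 called 16, against 35.8%. All 8 were called in all 3 fits. The 8 were the box H/ACA features sno12, snR3 and snR95, and snR30, snoZ16, snoZ4, snoZ15 and snoR38.

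Among the box H/ACA guides, sno12 carried the clearest difference. Its level was 35.4 and 17.5 CPM in WT, 70.5 and 67.0 in Y1F, 51.5 and 42.8 in S2A, 29.0 and 22.7 in T4A, and 41.7 and 33.8 in S7A. In the double mutants it was 59.1 and 61.6 CPM in Y1F-S7A, 45.7 and 70.0 in S2A-S7A, and 18.7 and 19.96 in T4A-S7A. The libraries of Y1F, S2A and the double mutants made from them all stood above WT, those of S7A and T4A overlapped it, and those of T4A-S7A lay between the 2 WT libraries. The log2 fold change was, in Y1F, 1.38 ± 0.29 (SE) with an edgeR adjusted p of 0.0277, 1.19 ± 0.29 in Y1F-S7A, with 0.0311, and 1.13 ± 0.29 in S2A-S7A, with 0.0206.

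In S2A the sno12 value was 0.84 ± 0.29, which edgeR called only with the block (adjusted p 0.0878 without and 0.0423 with it). sno12 lies in no other annotated feature, and its joint adjusted p by edgeR was 0.00395. Single calls rested on few libraries: without WT replicate 2, in which sno12 was lowest, the log2 fold changes were 0.96 in Y1F, 0.77 in Y1F-S7A and 0.70 in S2A-S7A, with edgeR adjusted p of 0.171, 0.177 and 0.138. The call was also lost without either library of Y1F or of Y1F-S7A, and without S2A-S7A replicate 2. The joint call of sno12 held with each of the 16 libraries left out in turn.

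snR3, a pseudouridylation guide for large-subunit rRNA in budding yeast, was at 6.35 and 4.94 CPM in WT and at 12.5 and 18.4 in Y1F. It reached 13.1 and 9.21 CPM in S2A, 27.5 and 13.4 in Y1F-S7A, and 14.5 and 16.6 in S2A-S7A. In T4A it was 5.45 and 2.31, in S7A 5.07 and 2.99, and in T4A-S7A 4.82 and 2.16 CPM. All 8 libraries of the first 4 mutants lay above both of WT, and the remaining 3 mutants overlapped WT or lay below it. In Y1F-S7A the log2 fold change was 1.86 ± 0.49, with an edgeR adjusted p of 0.043, which was lost without any 1 of the 4 libraries compared (0.0548 to 0.268). In Y1F it was 1.45 ± 0.49 and in S2A-S7A 1.46 ± 0.49. edgeR called both only with the block, at adjusted p of 0.0192 and 0.00764 against 0.166 and 0.0644 without it. DESeq2, fitted without the block, also called both.

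The host of snR3, SPNCRNA.1394, had 98.6% of its reads (median over libraries) within the snoRNA, which is 38.9% of its width, so the 2 rows are nearly the same measurement. The joint edgeR adjusted p was 0.007 for snR3 and 0.00742 for the host.

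snR95 had fewer reads, 28 to 328 a library. It was at 3.88 and 1.42 CPM in WT, 10.6 and 5.66 in Y1F, 6.72 and 4.83 in S2A, 10.4 and 9.16 in Y1F-S7A, and 10.5 and 8.01 in S2A-S7A. In T4A it was 1.77 and 2.26 CPM, in S7A 3.93 and 4.41, and in T4A-S7A 2.50 and 1.48. Besides the same 4 strains, S7A also lay above both WT libraries, by a narrow margin. The log2 fold change was 1.89 ± 0.46 in Y1F-S7A, with an edgeR adjusted p of 0.03, and 1.80 ± 0.46 in S2A-S7A, with 0.0193. In Y1F it was 1.62 ± 0.46 and in S2A 1.13 ± 0.45. edgeR called both only with the block (adjusted p 0.00782 and 0.0231, against 0.0902 and 0.143). DESeq2, fitted without the block, called snR95 in Y1F and not in S2A.

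The snR95 calls were lost without WT replicate 2, with edgeR adjusted p of 0.18 in Y1F-S7A and 0.132 in S2A-S7A. They were lost also without either Y1F-S7A library and without S2A-S7A replicate 1. snR95 holds 76.1% of the reads of SPNCRNA.1436, which overlaps most of it.

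snR30 (U17) is needed for processing of small-subunit rRNA in budding yeast rather than for a modification. Its level was 45.2 and 16.1 CPM in WT, 130.1 and 66.1 in Y1F, 85.9 and 54.1 in S2A, 121.1 and 73.1 in Y1F-S7A, and 98.9 and 106 in S2A-S7A. In S7A it was 49.0 and 27.4 CPM, and in T4A-S7A 21.4 and 11.98. T4A, at 32.5 and 14.98 CPM, overlapped WT. The first 4 mutants lay above both WT libraries, while the 2 WT libraries themselves stood far apart. The log2 fold change was 1.68 ± 0.55 in Y1F, 1.19 ± 0.54 in S2A, 1.67 ± 0.55 in Y1F-S7A and 1.74 ± 0.55 in S2A-S7A. None was called by edgeR without the block, at adjusted p of 0.15, 0.201, 0.0936 and 0.0507, and all 4 were with it, at 0.00368, 0.00727, 0.00206 and 0.000623. The joint edgeR adjusted p was 0.0173. snR30 had 23178 reads over all libraries against 23172 for SPNCRNA.906, so these rows, too, are nearly the same measurement.

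**Figure D3:**
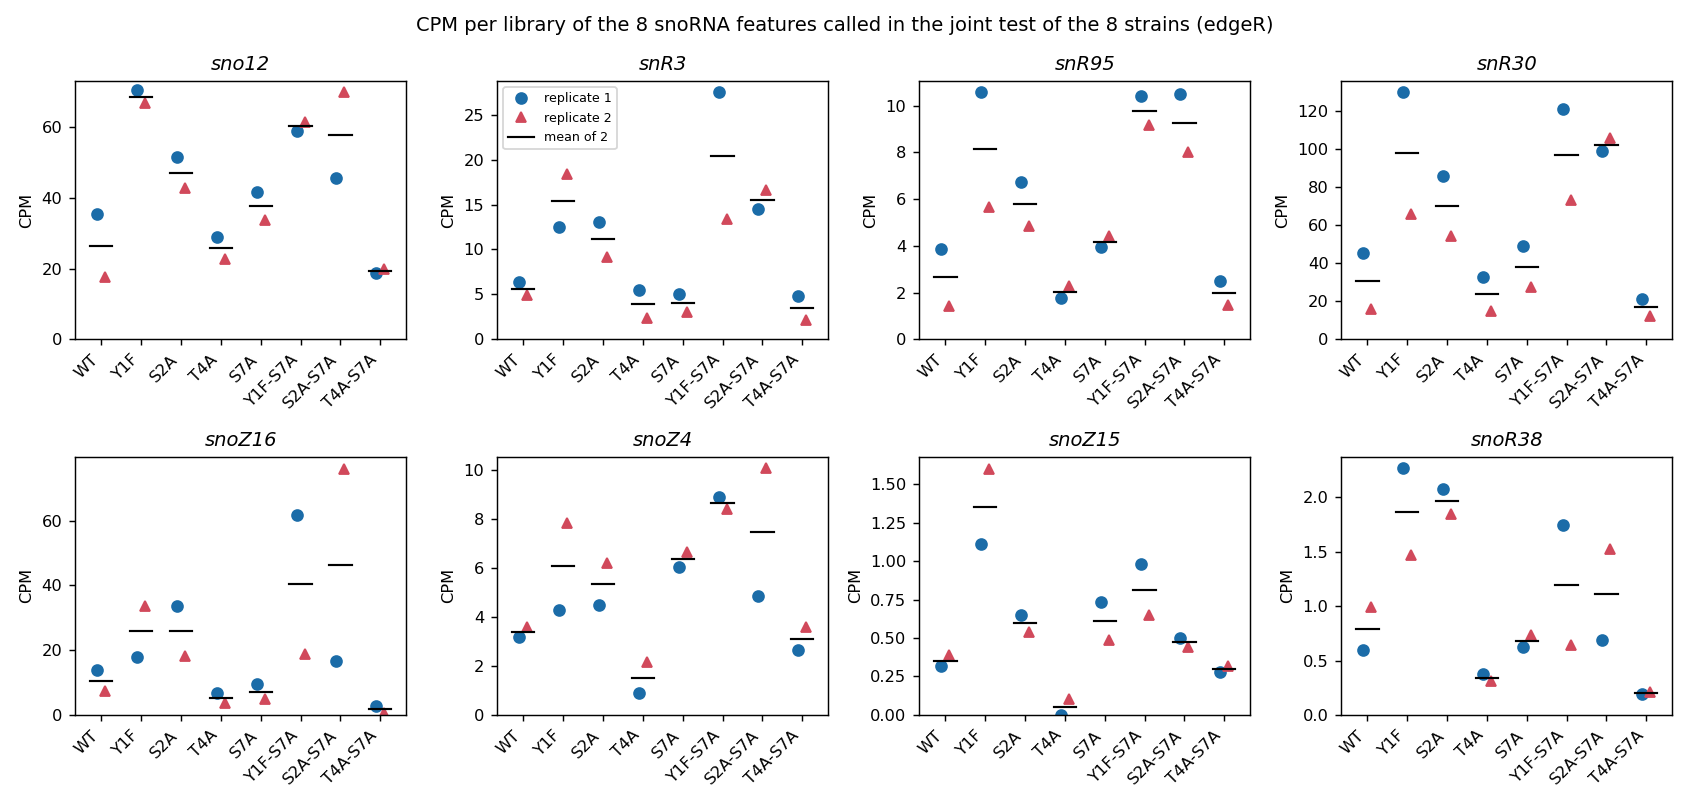
CPM in each library of the 8 snoRNA features called by edgeR in the joint test of the 8 strains. Circles are replicate 1, triangles replicate 2 and bars the mean of 2. sno12, snR3, snR95 and snR30 stand above WT in Y1F, S2A, Y1F-S7A and S2A-S7A, and S2A-S7A replicate 2 is far above replicate 1 for snoZ16.

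snoZ16, with C and D letters, differed widely between libraries. It was at 13.8 and 7.26 CPM in WT, 17.8 and 33.8 in Y1F, 33.6 and 18.2 in S2A, 61.8 and 18.8 in Y1F-S7A, and 16.8 and 76.0 in S2A-S7A. In T4A it was 6.71 and 3.54 CPM, in S7A 9.47 and 4.80, and in T4A-S7A 2.72 and 0.686. The 4 strains raised for the box H/ACA features again lay above WT, while T4A and T4A-S7A lay below both WT libraries. Replicates differed widely, and no single comparison with WT passed: log2 fold changes were 1.94 ± 0.80 for Y1F-S7A, 2.14 ± 0.80 for S2A-S7A and -2.54 ± 0.87 for T4A-S7A, with edgeR adjusted p of 0.175, 0.0937 and 0.186. The joint edgeR adjusted p was 0.016.

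snoZ16 lies in SPNCRNA.727, a name RefSeq lists under both snoZ16 and mrp1, the RNA of the RNA-processing enzyme RNase MRP. It took 64.7% of the reads of that row in 13.1% of its width, with a range of 22.4% to 82.5% between libraries. Outside snoZ16 the row held 4.11 and 2.06 CPM in WT, 17.5 and 19.5 in Y1F-S7A, 12.5 and 16.1 in S2A-S7A, and 3.41 and 2.38 in T4A-S7A. The double mutants with Y1F and S2A were above WT in that stretch also, and T4A-S7A was not below it. Y1F at 9.09 and 9.99 CPM, S2A at 10.4 and 7.18 and S7A at 8.19 and 6.08 lay above WT there too. T4A, at 4.05 and 2.05 CPM, did not. In S7A snoZ16 itself overlapped WT, so the stretch and snoZ16 did not move alike in every strain. The whole row gave a log2 fold change of 2.16 ± 0.61 in S2A-S7A, with an edgeR adjusted p of 0.0324.

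snoZ4 is the member of the snoZ cluster with the most reads, 1978 of the 4517 in its host SPNCRNA.659. It was at 3.20 and 3.61 CPM in WT, 8.90 and 8.41 in Y1F-S7A, 4.88 and 10.1 in S2A-S7A, and 0.886 and 2.15 in T4A. S7A, at 6.06 and 6.66 CPM, also lay above WT, as did Y1F at 4.30 and 7.85 and S2A at 4.5 and 6.23, and T4A lay below it. T4A-S7A, at 2.66 and 3.59 CPM, overlapped WT. The log2 fold change was 1.34 ± 0.44 in Y1F-S7A and 1.13 ± 0.44 in S2A-S7A, called by edgeR only with the block (adjusted p 0.00632 and 0.0161, against 0.0936 and 0.108). The joint edgeR adjusted p was 0.0241, and it missed the threshold without T4A replicate 1 (0.0602), Y1F-S7A replicate 1 (0.0543) or Y1F-S7A replicate 2 (0.0507).

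The remaining 2 features called in the joint test are intronic and had few reads. snoZ15, in pfd1, was at 0.320 and 0.387 CPM in WT, 1.11 and 1.60 in Y1F, 0.985 and 0.647 in Y1F-S7A, and 0 and 0.103 in T4A, where it had 0 and 2 reads. It was at 0.648 and 0.542 CPM in S2A, 0.734 and 0.49 in S7A, 0.5 and 0.445 in S2A-S7A, and 0.282 and 0.317 in T4A-S7A. Y1F held the highest values and T4A the lowest. snoZ15 was under the filter's level in both WT libraries, so it passed through other strains. In Y1F the log2 fold change was 1.93 ± 0.56, called by edgeR only with the block (adjusted p 0.0412, against 0.1 without it). The joint edgeR adjusted p was 0.0128.

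snoR38, in SPAC29A4.02c, was at 0.594 and 0.989 CPM in WT, 2.27 and 1.47 in Y1F, 2.08 and 1.85 in S2A, 0.375 and 0.308 in T4A, and 0.188 and 0.211 in T4A-S7A. S7A at 0.624 and 0.735 CPM, Y1F-S7A at 1.75 and 0.647 and S2A-S7A at 0.692 and 1.53 overlapped WT. Y1F and S2A were above WT and both T4A strains below it. None of its single comparisons passed in either edgeR fit, with log2 fold changes of 1.31 ± 0.52 in S2A and -1.98 ± 0.65 in T4A-S7A at adjusted p of 0.143 and 0.164 without the block. The joint edgeR adjusted p was 0.0137, and 0.0524 without T4A-S7A replicate 1.

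Several abundant features passed only with the block. sno20, a box H/ACA RNA named with snR35 by RefSeq, was at 14.3 and 4.13 CPM in WT, 28.4 and 14.2 in S2A, 41.4 and 14.2 in Y1F-S7A, and 25.4 and 27.8 in S2A-S7A. In sno16, values of 15.1 and 4.86 CPM in WT stood against 29.7 and 19.6 in Y1F, 27.0 and 16.3 in Y1F-S7A, and 17.7 and 18.3 in S2A-S7A. For both features replicate 1 was far above replicate 2 in WT, and the mutants differed from WT within each number. sno20 overlapped WT in S2A and Y1F-S7A through WT replicate 1, and its edgeR adjusted p in S2A-S7A was 0.259 without the block and 0.00683 with it. For sno16 in Y1F it was 0.351 without and 0.00685 with it.

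The box H/ACA features snR42 and snR91 were called with the block in Y1F, S2A, Y1F-S7A and S2A-S7A. snR91 was at 4.57 and 2.19 CPM in WT, 8.75 and 7.09 in Y1F, 14.0 and 7.45 in S2A, 12.1 and 5.98 in Y1F-S7A, and 7.88 and 12.6 in S2A-S7A, with no overlap with WT in any of the 4. Its log2 fold change in S2A was 1.67 ± 0.53, with an edgeR adjusted p of 0.0659 without the block and 0.00405 with it. sno52 was at 8.32 and 5.29 CPM in WT, 27.0 and 10.2 in Y1F-S7A, and 11.4 and 21.7 in S2A-S7A. It too was called only with the block, in these 2 double mutants, at edgeR adjusted p of 0.0455 and 0.0314.

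Replicates of S2A-S7A ran against the order seen elsewhere. In S2A-S7A, 38 members were higher and 9 lower in replicate 2 than in replicate 1, with a median log2 difference of 0.628. In each of the other 7 strains more members were lower than higher in replicate 2, with medians of -0.414 to -0.083. The edgeR fit with the block called 17 of the 38 tested members between the replicate numbers, 12 of them lower in number 2. Of all 6420 tested features it called 3228, so the share of members was near the background.

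A few members went the other way. snR92, a box H/ACA feature, was at 15.9 and 9.41 CPM in WT but 4.5 and 3.48 in S2A, and at 13.6 and 24.2 in S2A-S7A. In the remaining strains it lay between 4.80 and 28.8 CPM. S2A held the lowest values of all strains, and S2A-S7A overlapped WT. In S2A against WT the log2 fold change was -1.66 ± 0.58, not called by edgeR without the block (adjusted p 0.0892) or with it (0.0528) and called by DESeq2 (0.0206). In S2A-S7A against S2A it was 2.24 ± 0.58, called only with the block and by DESeq2 (adjusted p 0.12 by edgeR, 0.031 with the block and 0.00323 by DESeq2).

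The feature on the opposite strand of snR92, SPNCRNA.1487, showed a larger difference in the same strain. It was at 19.3 and 21.8 CPM in WT, 1.13 and 1.72 in S2A, and 14.1 and 15.2 in S2A-S7A. It fell by 3.87 ± 0.24 on the log2 scale in S2A, with an edgeR adjusted p of 5.69e-06, and was 3.38 ± 0.23 higher in S2A-S7A than in S2A, with 4.5e-05. The difference of S2A-S7A from S2A exceeded that of S7A from WT by 3.57 ± 0.30 on the log2 scale, with an edgeR adjusted p of 0.000476. S2A-S7A is h- and S2A is h+, so here the S7A change and the mating type cannot be told apart. In Y1F the 2 rows parted: SPNCRNA.1487 fell by 0.92 ± 0.20, with an edgeR adjusted p of 0.0325, while snR92 was at 15.5 and 28.8 CPM, overlapping WT. Reads of the pair can be told apart only if the counting used the strand, and S2A is also the h+ strain.

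**Figure D4:**
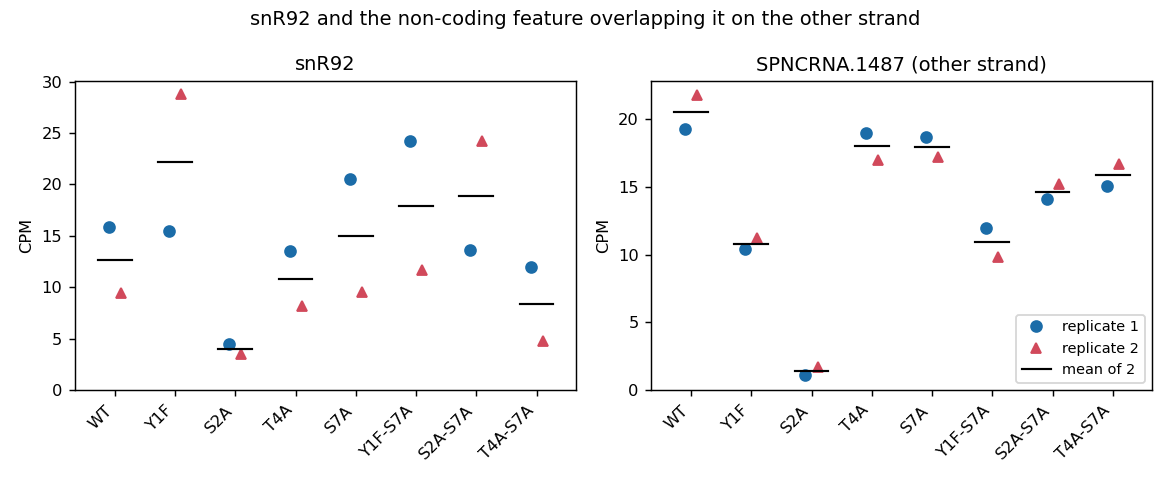
CPM in each library of snR92 and of SPNCRNA.1487, the feature on its opposite strand. Circles are replicate 1, triangles replicate 2 and bars the mean of 2. Both rows are lowest in S2A, and SPNCRNA.1487 alone is lower in Y1F and Y1F-S7A.

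Also lower in S2A-S7A were snR101, a box H/ACA feature, and snoR47, in an intron of the kinetochore gene fta3. snR101 was at 12.7 and 10.4 CPM in WT and 7.34 and 7.22 in S2A-S7A, with a log2 fold change of -0.66 ± 0.22. snoR47 was at 2.24 and 3.74 CPM in WT and 0.846 and 1.19 in S2A-S7A, with -1.56 ± 0.55. The libraries of S2A-S7A and WT did not overlap for either. snR101 lay below both WT libraries also in Y1F, at 9.57 and 8.56 CPM, and Y1F-S7A, at 9.35 and 7.71. In S7A it did so by a narrow margin, at 10.353 and 7.69 against 10.358 CPM in WT replicate 2. snoR47 lay below WT also in S2A, at 1.501 and 1.805 CPM, S7A, at 1.065 and 1.225, and Y1F-S7A, at 1.62 and 0.916. Both overlapped WT in T4A and T4A-S7A, as did snR101 in S2A and snoR47 in Y1F. In S2A-S7A edgeR called both only with the block, at adjusted p of 0.0099 and 0.0341, against 0.0658 and 0.0775 without it. DESeq2, fitted without the block, also called both there. Neither was called against WT in another strain by any of these fits.

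How reads in overlapping features were assigned is not given in the sources used here, so a member inside a host may share reads with it. The shares given here and above take the count of the host to include the reads of the member. How far the 2 rows are separate measurements then depends on the host. Among non-coding hosts the snoRNA took a median of 98.6% of the reads of SPNCRNA.1394 (snR3), 96.5% of SPNCRNA.814 (snR98) and 85.2% of SPNCRNA.1038 (snR90). It took 34.2% of SPNCRNA.1597 (sno16), in 6.28% of its width, and 3.19% of SPNCRNA.617 (snR97), in 3.49% of its width. In intron hosts the median was at most 0.818%, in fta3. In these hosts nearly all reads came from outside the snoRNA, and whether their counts include intron reads cannot be told from these shares.

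Of the 27 features inside another, 20 were tested together with their 17 hosts. The 12 in non-coding hosts had 3 called by edgeR in the joint test, snR3, snoZ16 and snoZ4, and 4 of their 9 hosts were called. The 8 in introns had 2 called, snoZ15 and snoR38, and 2 of their 8 hosts, pfd1 and fta3. Over all 20 it was 5, against 3 of the 18 tested features not inside another. Both shares are read against the 22.3% of all features called.

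Member and host did not always move alike. SPNCRNA.617 rose in S2A-S7A, with a log2 fold change of 1.34 ± 0.32 and an edgeR adjusted p of 0.0156, while snR97 within it stood at 0.16 ± 0.78. pfd1 rose by 0.95 ± 0.15 in the same comparison, with an edgeR adjusted p of 0.00162, and snoZ15 stood at 0.42 ± 0.60. The difference between member and host was not tested in these cases, and the errors of the snoRNA rows are wide.

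In cpc2 and SPNCRNA.1597 the snoRNA was called with the block and the host was not. In S2A-S7A snoU24b stood at 1.62 ± 0.61 on the log2 scale and cpc2 at -0.29 ± 0.26, and edgeR called snoU24b only with the block (adjusted p 0.0296). sno16 was called with the block in the joint test (edgeR adjusted p 0.00128) and its host SPNCRNA.1597 was not (0.616).

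Other pairs gave no call in S2A-S7A for the snoRNA by either edgeR fit, except snoZ5 with the block. snR98 and snR90 stood at 0.61 ± 0.42 and 0.63 ± 0.44 on the log2 scale, like their hosts at 0.64 ± 0.40 and 0.65 ± 0.40. snR51b stood at 1.37 ± 1.03 in a host at 1.13 ± 0.59, snoZ30 at -0.10 ± 0.30 in one at -0.21 ± 0.23, and snoR39b at -0.03 ± 0.68 in rpl701 at -0.11 ± 0.23.

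A further 6 of these members were under the filter's level in a WT library and passed through other libraries, so their reads are given in place of a fold. In WT and then in S2A-S7A, snR70 had 1 and 1 against 4 and 11 reads, snoZ5 5 and 0 against 18 and 9, and snoZ3 3 and 17 against 1 and 15. snoU18, snoR58 and snoR39a had 19 and 9, 3 and 10, and 9 and 12 reads in WT. With so few reads, a difference between such a member and its host was not detectable.

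**Figure D5:**
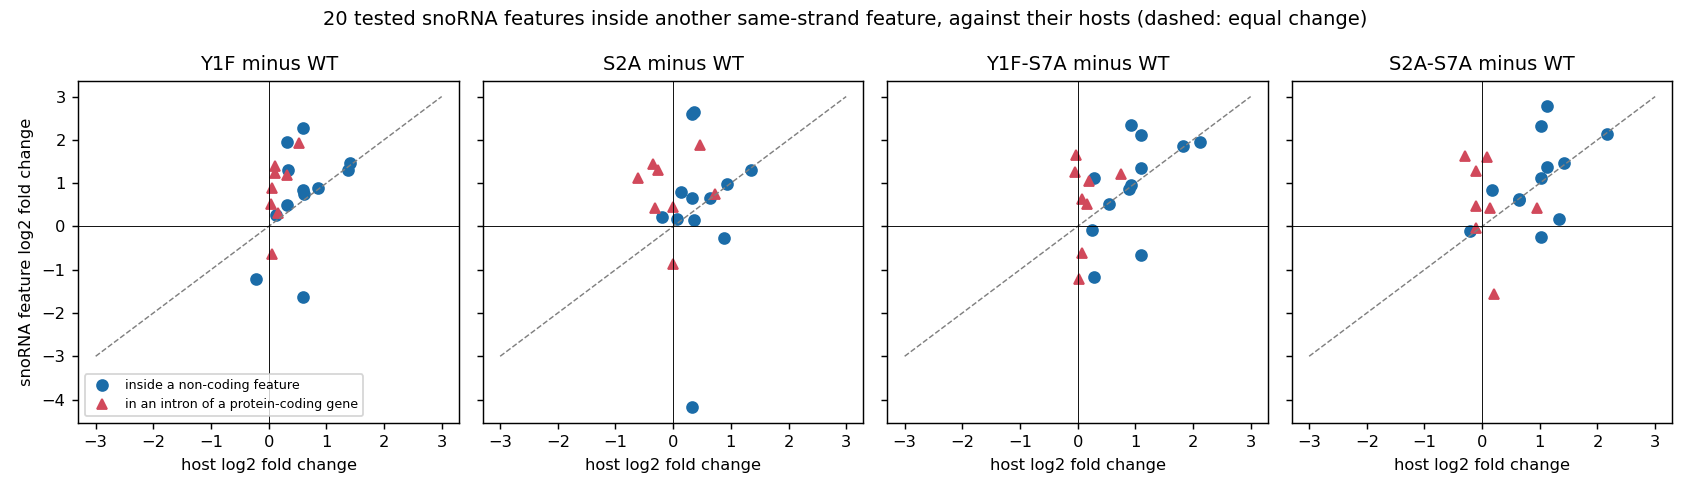
log2 fold change from WT of snoRNA features against that of the host feature that holds them. The 4 panels are Y1F, S2A, Y1F-S7A and S2A-S7A, with triangles for members in introns and circles for members in non-coding hosts. snR3 lies on the diagonal. Several members, such as snR70 and snoZ5, have few reads in WT and passed the filter through other strains, so their height is no measure of all members.

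The double mutants were also set against their parents without S7A, where few features of any kind were called. Between S2A and S2A-S7A the mating type changes as well, from h+ to h-. In Y1F-S7A against Y1F, 5 of the 53 features, or 9.43%, lay above in both libraries, against 13.9% of all features, and 5 below, against 12.5%. In S2A-S7A against S2A, 8 lay above, or 15.1%, against 15.9%, and 5 below, or 9.43%, against 19.8%. For T4A-S7A against T4A it was 6 above, or 11.3%, against 16.9%, and 3 below, or 5.66%, against 14.4%. These shares were near or under the background.

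By edgeR, 0 members were called in Y1F-S7A against Y1F, against 0.0156% of all features, with 0 at an unadjusted p under 0.05, 0 with the block, against 1.36%, and 0 by DESeq2, against 0.961%. In S2A-S7A against S2A edgeR called 0, against 0.483%, with 4 at an unadjusted p under 0.05. The block called 1, against 10.6%, and DESeq2 1, against 3.84%, in both cases snR92. T4A-S7A against T4A had 0 by edgeR, against 0.187%, 3 at an unadjusted p under 0.05, 0 with the block, against 2.51%, and 0 by DESeq2, against 1.63%.

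Whether the S7A change acted differently in another CTD background than in WT was tested as an interaction. For S2A the interaction also holds the change of mating type between S2A and S2A-S7A. In Y1F edgeR called 0 members, against 0% of all features, with 0 at an unadjusted p under 0.05, 0 with the block, against 1.15%, and 0 by DESeq2, against 0.898%. In S2A it called 0, against 0.483%, with 2 at an unadjusted p under 0.05, 0 with the block, against 3.64%, and 0 by DESeq2, against 2.41%. In T4A it called 0, against 0.0156%, with 1 at an unadjusted p under 0.05, 0 with the block, against 0.374%, and 0 by DESeq2, against 0.545%.

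Genes of the proteins that bind, build and degrade snoRNAs were read in the same fits. None of the 4 box C/D proteins and none of the 4 box H/ACA proteins was called by edgeR in the joint test, against 22.3% of all features. With the block the counts were 0 and 2, where 57.9% of all features were called, a share to set beside each block count of a list here. Of the 6 assembly factors 2 were called: hit1 fell by 1.03 ± 0.17 on the log2 scale in S2A, with an edgeR adjusted p of 0.00216, and by 1.30 ± 0.17 in S2A-S7A, with 0.000523. shq1, which in budding yeast assembles box H/ACA particles, fell by 0.83 ± 0.13 in S2A-S7A, with an edgeR adjusted p of 0.00134.

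Of 15 exosome genes and cofactors, 2 were called in the joint test, the RNA helicase genes mtl1 and mtr4, and 10 with the block. mtr4 fell by 0.45 in S2A-S7A, with an edgeR adjusted p of 0.0307, and mtl1 by 0.43 in Y1F-S7A, with 0.034. Of 8 genes of poly(A) addition and binding 1 was called, rmn1, and 7 with the block. rmn1 fell by 0.54 in S2A-S7A, with an edgeR adjusted p of 0.0024, and air1, of the TRAMP polyadenylation complex, fell by 0.66, with 0.0295. red1, which acts in the removal of meiotic transcripts, was called higher in 4 comparisons with WT and missed the joint test (edgeR adjusted p 0.0585). It rose by 0.47 in Y1F, 0.42 in S2A, 0.44 in Y1F-S7A and 0.49 in S2A-S7A on the log2 scale, with edgeR adjusted p of 0.0336, 0.021, 0.0247 and 0.00792. In S7A, T4A and T4A-S7A its values were 0.41, 0.40 and 0.38, not called. Of 18 genes of 3′ end formation and termination 3 were called, cft2, rhn1 and ctf1, and 12 with the block. In S2A-S7A rhn1 fell by 0.88 and ctf1 by 0.49, with edgeR adjusted p of 0.00197 and 0.00902. The median log2 fold change in S2A-S7A was -0.31 for the assembly factors, -0.30 for the exosome list, -0.05 for the poly(A) list and -0.14 for the 3′ end list, against -0.004 for all features.

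The authors' deposited table of comparisons with WT calls 1 snoRNA feature in Y1F, sno12 with a log2 fold change of 1.28 and an adjusted p of 0.00673. For S2A the authors' deposited table holds 1, snR92 at -1.90 with 0.036, and Y1F-S7A has 1, snR95 at 1.74 with 0.00218. For S2A-S7A the authors' deposited table calls 5, snR30 at 1.51, snR42 at 1.41, snR3 at 1.23, snR95 at 1.57 and snoR47 at -1.79. It calls 0 in T4A, S7A and T4A-S7A. The share of all features called there is not given here, so these counts cannot be set against a background.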

How the data were processed

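Polyadenylated RNA of 8 strains, 2 biological replicates each, was made into stranded libraries and sequenced as read pairs, per the labels' protocols. The authors deposited whole-number read counts per feature. Bowtie 0.12.7 is named per the submitters' processing notes. The build, and whether counting used the strand, are not given in the sources used here. Besides counts, the authors deposited log2 fold changes with p-values, which were copied and not recomputed.

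Counts were tested with edgeR 4.0.16 (R 4.3.3): filterByExpr by strain with a minimum count of 10 and a minimum total of 15, TMM scaling, and a robust two-sided quasi-likelihood test. It used 1 coefficient per strain, all 16 libraries and Benjamini-Hochberg adjustment over 6420 features, with calls at an adjusted p under 0.05. The SE given with a log2 fold change was derived from the test: the absolute log2 fold change divided by the square root of its F statistic. There were 8 residual degrees of freedom and the biological coefficient of variation was 19.3%. Depth was 18677921 to 31254978 reads, and replicates differed beyond sampling noise. A count of 0 allows up to 3 reads, for counting error only. Alternatives were DESeq2 1.42.0, RLE size factors, no filter, the replicate block, the libraries compared alone, leaving out each library, and leaving out members inside a host. The fit was tested on simulated data.

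Replicate numbers come from the labels. Deviations of same-numbered libraries from their strain means correlated at 0.304 to 0.755 over all features in all 28 pairs of strains (log2 CPM with a pseudocount of 0.5), so the numbers pair the libraries.

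The members and gene lists were chosen with earlier results of these data known. Named features are those called in the joint test or a comparison of strains, the 10 highest by RPKM, members tested with their host, and list genes called in the joint test. snR42, snR91, snR101, red1, air1 and SPNCRNA.1487 were described after their values were seen.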

Additional observations from a re-analysis of the deposited data

How the results depend on the processing

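Counts of called snoRNA features are given for Y1F, S2A, Y1F-S7A and S2A-S7A against WT and for the joint test, in that order. They were 1, 0, 3, 2 and 8 by edgeR, 8, 9, 11, 16 and 20 with the replicate block, and 5, 3, 5, 9 and 16 by DESeq2. With only the libraries compared, the first 4 were 0, 1, 1 and 1. Leaving out each library in turn gave 0 to 2, 0 to 2, 0 to 2, 0 to 4 and 7 to 11. For S2A-S7A against S2A the replicate block and DESeq2 each called 1. Leaving out members inside a host removed 5 of the 8 called in the joint test and left 3, so this fall is no measure of stability. In the gene lists, in the joint test, the replicate block called 2 box H/ACA proteins, 4 assembly factors, 10 exosome genes, 7 poly(A) genes and 12 genes of 3′ end formation, and DESeq2 called 1, 2, 5, 5 and 5. Leaving out a library gave 1 to 3 exosome genes and 1 to 2 poly(A) genes. Apart from that removal of called rows, the cause of these shifts was not tested. Single comparisons of members that edgeR called without the block kept their direction in every alternative run that held them. Direction was compared across the runs only for these. With 2 libraries a strain, and 17 members under 100 reads in all, small differences were not detectable.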
